A study of Mus musculus with 4 samples.

Results

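Cytosolic ribosomal proteins form the protein part of the ribosome, and their transcripts were measured here in mDCT cells, an immortalised mouse cell line derived from the distal convoluted tubule of the kidney. The genes were chosen by name alone, as every gene whose annotated symbol was that of a small subunit (Rps) or large subunit (Rpl) protein or of the stalk (Rplp0, Rplp1, Rplp2), together with Rpsa. A probe set is a group of short probes for 1 transcript. Of 18194 genes with a probe set of their own, 46 met the rule, with 100 probe sets between them. Another 110 probe sets named such a gene together with a second name, 98 of them with a pseudogene or predicted locus and 12 with another gene. Those probe sets are described apart, and 27 genes were seen in them alone, which brings the family to 73 genes. Each gene is given by its brightest probe set, and 42 of the 46 genes were among the 11058 of 18194 that were bright enough to be compared, with a mean signal of at least 55.9.

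The cells had been transfected with pCSII-3xFLAG-hMR, a plasmid that encodes the human mineralocorticoid receptor (MR) with a FLAG tag. MR is the nuclear receptor for the steroid hormone aldosterone, and all groups carried the plasmid. After 48 h the cells received spironolactone, an MR antagonist, at 5 µM, or ethanol, the solvent, and aldosterone or ethanol followed 2 h later for 3 h. The 4 treatments were spironolactone followed by 100 nM aldosterone, called spironolactone below, then ethanol alone, 1 nM aldosterone and 100 nM aldosterone. Each treatment has 1 library on 1 array, so there is no replicate error to measure a difference by, no test was possible, and every difference is one between 2 libraries. There was no library with spironolactone alone, the receptor was supplied by transfection into 1 cell line, and the line's labelled origin was only partly borne out by its transcripts. Of the 12 measured genes listed as distal convoluted tubule markers, 7 passed the signal filter, among them Wnk4 and Cdh16. How specific each gene is to that segment was not tested. Calb1 and the defining transporter gene Slc12a3 did not pass. Slc12a3 had signals of 4.35 with spironolactone, 3.93 with ethanol, 17.2 with 1 nM and 12.1 with 100 nM aldosterone. The filter was passed by 4 of 4 proximal tubule markers, 0 of 5 principal cell markers, 0 of 5 fibroblast markers, 1 of 4 endothelial markers (Kdr) and 1 of 4 leukocyte markers (Cd68). Most of the proximal tubule markers were dim. Slc34a1 had signals between 44.6 and 66.0, Slc5a2 between 45.4 and 88.0 and Cubn between 83.5 and 106. Lrp2 was brighter, between 463 and 567. Some distal convoluted tubule markers that passed, such as Pvalb and Trpm6, were dim too.

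A ribosome is built in the nucleolus from ribosomal RNA, most of it made by RNA polymerase I, and a single copy of most ribosomal proteins. Cells therefore keep the supply of these proteins matched. The transcripts are among the most abundant of any growing cell. In mammals most of them start with a C followed by a run of C and T bases, the 5′ terminal oligopyrimidine tract, through which mTOR signalling sets how well they are translated. That control acts on translation, and a transcript level does not show it. Proteins left over from assembly have other roles: Rpl5 and Rpl11 bind Mdm2, the ubiquitin ligase that degrades p53.

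The starts of several of these genes are shown because the tract is the sequence feature the family is known for, and they are those of the stalk and of some members with wide ranges. Rpl27a and Rps4x also had wide ranges, carried no tract at the annotated start and are not shown. Promoter entries of RefSeq (GRCm38.p6) were matched for 58 of the 73 genes. Windows run from 15 bases before the annotated start to 15 bases from the start onward, on the transcript's strand, with capitals marking the tract, defined as C at the annotated start followed by at least 4 bases of C or T. The first 3 genes carry it, and the next 4 do not at this annotated start.
Rplp2 (chr7:141447636-141447665, plus strand): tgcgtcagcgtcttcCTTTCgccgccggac
Rps6 (chr4:86857353-86857382, minus strand): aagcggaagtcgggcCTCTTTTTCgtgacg
Rps27 (chr3:90213634-90213663, minus strand): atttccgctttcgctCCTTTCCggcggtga
Rplp0 (chr5:115559452-115559481, plus strand): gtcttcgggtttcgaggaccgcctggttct
Rpl11 (chr4:136053379-136053408, minus strand): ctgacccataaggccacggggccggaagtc
Rpl12 (chr2:32961697-32961726, plus strand): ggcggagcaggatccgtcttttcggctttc
Rpl39 (chrX:37085208-37085237, minus strand): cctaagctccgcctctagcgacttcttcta
The tract stood at an annotated start of 13 of the 58 genes, or 22.4%, against 3.01% of all 27025 genes in the table. Several of the windows without it, such as that of Rpl12, hold a run of C and T bases some positions away from the annotated start, and the count depends on that annotation to the base.

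The ribosomal protein transcripts were bright and close to level across the treatments. Of the 42 genes, 35 lay in the brightest 10% of all genes by signal. The range of log2 signal over the 4 libraries had a median of 0.086 over the 42 genes, a 1.06-fold span, against 0.222, or 1.17-fold, over all 11058 genes. Dim probe sets vary more, so the nearer comparison is with bright genes outside the family: the 188 non-members in the brightest 2% of genes had a median range of 0.083, equal to that of the 35 ribosomal protein genes with a mean log2 signal of at least 12, also 0.083. The narrowest range belonged to Rps27l, a p53-inducible paralog of Rps27, with signals of 13695 with spironolactone, 13715 with ethanol, 13548 with 1 nM and 13713 with 100 nM aldosterone. Rps15, Rps14, Rps18 and Rps24, all of the small subunit, and Rpl41, Rpl10a and Rpl4, of the large subunit, followed with spans of 1.02-fold to 1.04-fold. By its brightest own probe set, none of the 42 genes reached 1.5-fold between any 2 libraries.

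**Figure D1:**
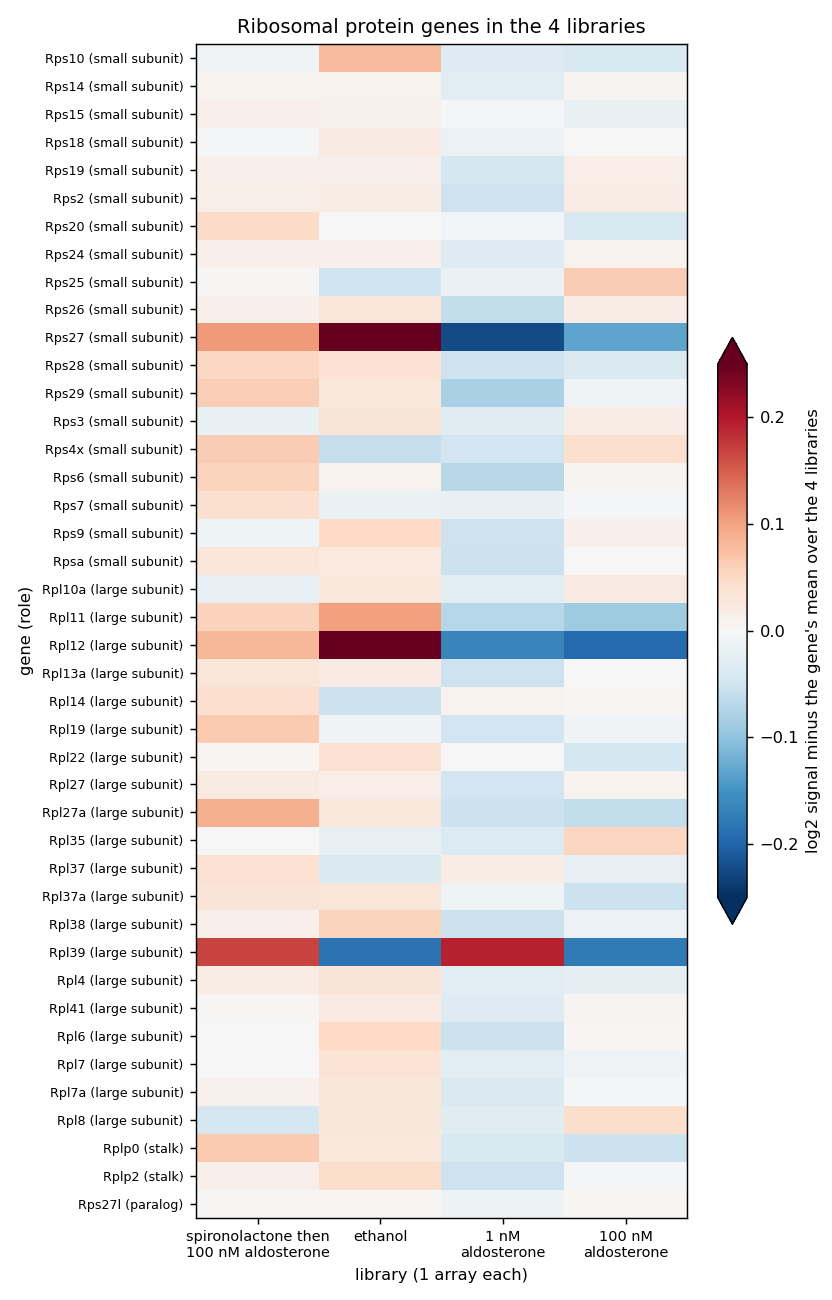
Each row is 1 of the 42 ribosomal protein genes that passed the filter, grouped by role, and each column is 1 library. Colour gives the log2 signal minus the gene's own mean over the 4 libraries, on a scale that ends at 0.25 either way; most rows are pale, and Rps27, Rpl12 and Rpl39 stand out.

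The first question was how the family stood after 3 h of the higher hormone dose, 100 nM aldosterone, against ethanol. The family's median difference of log2 signal was -0.019 (0.0064 after quantile normalization, which turns the sign), with 10 genes higher and 32 lower, while over all genes the median was -0.0046 and 51.3% were lower. At least 1.2-fold, 0 genes were higher, against 9.36% of all genes, and 2 were lower, Rpl12 and Rps27, against 9.32% of all genes. Among the brightest 10% of genes, where most of the family lies, 1.36% passed 1.2-fold in either direction. The 188 brightest non-members had a median of -0.015, with 70 higher and 118 lower.

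Rpl12, a protein at the base of the stalk, had signals of 1192 with spironolactone, 1363 with ethanol, 1003 with 1 nM and 984 with 100 nM aldosterone. Both libraries with aldosterone alone were below both others, and the difference of log2 signal for 100 nM minus ethanol was -0.47. A far brighter Rpl12 probe set that also names a pseudogene had its low values in the same libraries but not a difference of that size, with signals of 27508 with spironolactone, 27359 with ethanol, 26012 with 1 nM and 26979 with 100 nM aldosterone and a difference of -0.020. The next brightest set of this kind was at 0.050. Rps27, a zinc finger protein of the small subunit, had signals of 617 with spironolactone, 681 with ethanol, 491 with 1 nM and 523 with 100 nM aldosterone, and a difference of -0.38. Its pattern across libraries was that of the dim Rpl12 probe set, but a brighter probe set, which also names the protein-coding gene Rps27rt, was higher with aldosterone: 16395 with spironolactone, 16891 with ethanol, 17241 with 1 nM and 17918 with 100 nM aldosterone, a difference of 0.085. The size of the lower signal is thus not repeated by the brighter probe sets of either gene, and for Rps27 and the next brightest Rpl12 set neither is its direction; which probe set reports the gene's transcript was not tested.

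Rpl11, one of the Mdm2-binding proteins, was the bright member with the widest range. Its signals were 18515 with spironolactone, 19083 with ethanol, 16922 with 1 nM and 16726 with 100 nM aldosterone, so both libraries with aldosterone alone were below both others. The difference for 100 nM minus ethanol was -0.19, short of 1.2-fold. A dim Rpl11 probe set that also names a pseudogene had signals of 145 with spironolactone, 153 with ethanol, 127 with 1 nM and 124 with 100 nM aldosterone, in the same order and with a difference of -0.30. At the other end stood Rps25, needed for initiation at some internal ribosome entry sites, with signals of 2483 with spironolactone, 2394 with ethanol, 2450 with 1 nM and 2590 with 100 nM aldosterone and a difference of 0.11. Rps4x, an X-linked small subunit protein, followed at 0.098, and Rpl35 at 0.073. Each of these 3 was highest or second highest with 100 nM aldosterone.

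**Figure D2:**
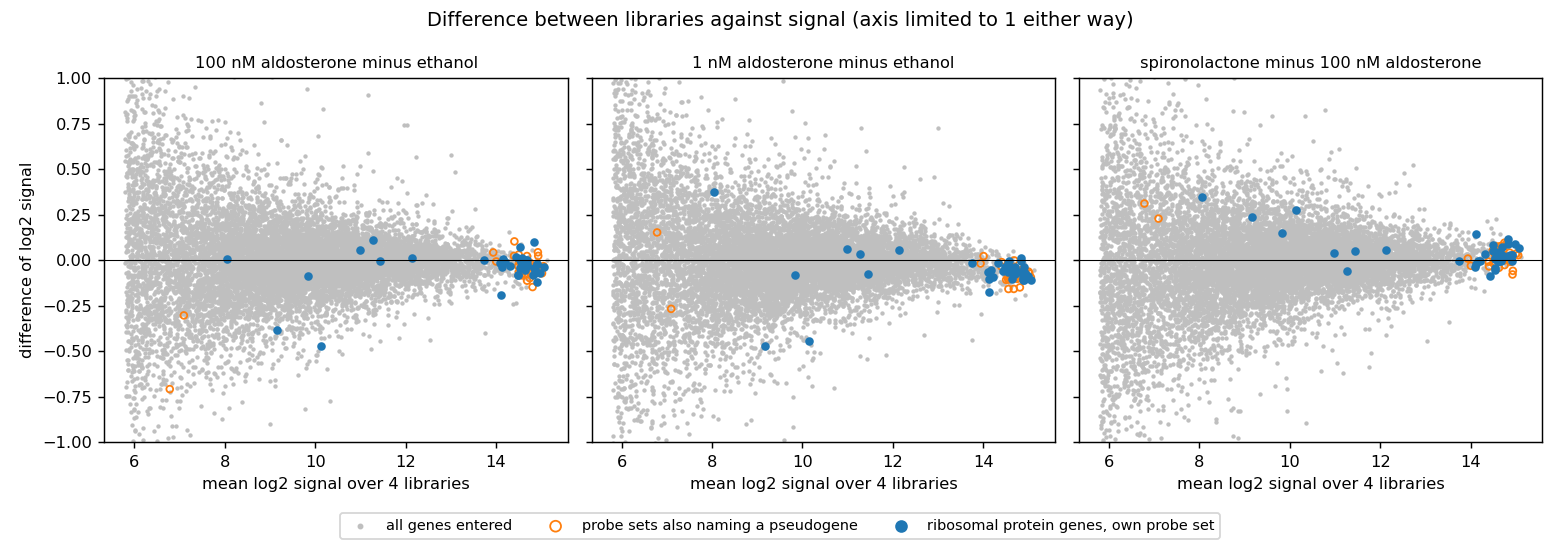
Each panel plots the difference of log2 signal between 2 libraries against mean log2 signal, for all 11058 genes (grey), the 42 ribosomal protein genes (blue) and probe sets that also name a pseudogene or predicted locus (orange circles); points beyond 1 either way are not shown. The blue points gather at the bright end close to the line at 0, and the dim members Rpl12, Rps27 and Rpl39 lie apart from them.

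The 1 nM library gave the lowest values of the family. The median difference of log2 signal for 1 nM aldosterone minus ethanol was -0.060 (0.0078 after quantile normalization, which turns the sign), or 0.959-fold, with 5 genes higher and 37 lower, while over all genes the median was -0.0064 and 51.7% were lower. At least 1.2-fold, 1 gene was higher (Rpl39), against 10.3% of all genes, and 2 were lower (Rps27 and Rpl12), against 9.96%. Of the 42 genes, 27 had their lowest signal with 1 nM aldosterone, against 26.3% of all genes. Bright genes in general shared this, and its part in the family's values was not tested: 48.9% of the 188 brightest non-members were lowest there too, and their median was -0.040, with 51 higher and 137 lower. The array's hybridization controls are labelled RNA added to the hybridization mix and not made by the cells. Of their 18 probe sets, 7 were lowest with 1 nM aldosterone. All 4 probe sets for the phage gene cre, the brightest of these controls, were lower in both libraries with aldosterone alone than in both others, the brightest with signals of 27619 with spironolactone, 27476 with ethanol, 26473 with 1 nM and 26165 with 100 nM aldosterone. Of the 14 dimmer control probe sets, for bioB, bioC and bioD, 5 were lower in both and 1 was higher in both. The 42 probe sets held 2.49% of the summed signal with spironolactone, 2.49% with ethanol, 2.41% with 1 nM and 2.45% with 100 nM aldosterone.

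Both subunits lay alike in that comparison. The 19 small subunit genes had a median of -0.063 and the 20 large subunit genes one of -0.058. Rps29, a small zinc-binding protein of the small subunit, had signals of 35735 with spironolactone, 34871 with ethanol, 32386 with 1 nM and 34046 with 100 nM aldosterone, the 1 nM library being the lowest. Rps6, the small subunit protein phosphorylated by the S6 kinases, had signals of 2887 with spironolactone, 2794 with ethanol, 2646 with 1 nM and 2790 with 100 nM aldosterone, a difference of -0.078 for 1 nM minus ethanol. The highest differences were those of Rpl39 at 0.38, Rpl14 at 0.063 and Rpl37 at 0.054.

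Rpl39, a short protein of the exit tunnel through which the new chain leaves, had signals of 298 with spironolactone, 233 with ethanol, 303 with 1 nM and 235 with 100 nM aldosterone. The libraries fell into a high pair, spironolactone and 1 nM, and a low pair, ethanol and 100 nM, an order that follows neither dose nor antagonist. The brighter Rpl39 probe set, which also names a pseudogene, had signals of 29383 with spironolactone, 30452 with ethanol, 27454 with 1 nM and 27493 with 100 nM aldosterone, and both of its values with aldosterone alone were the low ones. Its paralog Rpl39l, best known from testis, had signals of 8.22 with spironolactone, 23.2 with ethanol, 18.4 with 1 nM and 21.5 with 100 nM aldosterone and did not pass the filter, and neither did Rpl3l, the muscle paralog of Rpl3.

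Direct comparison of the doses, 100 nM minus 1 nM aldosterone, gave a family median of 0.039 (-0.00088 after quantile normalization, which turns the sign), with 30 genes higher and 12 lower against 51.3% of all genes higher. At least 1.2-fold, 0 genes were higher, against 9.18% of all genes, and 1 was lower, Rpl39, against 9.14%. The brightest non-members had a median of 0.023.

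The comparison of spironolactone with 100 nM aldosterone asks what the antagonist changed when the hormone was present. The family median was 0.028 (0 after quantile normalization), with 29 genes higher and 13 lower, against a median of -0.0028 and 49.3% higher over all genes. At least 1.2-fold, 2 genes were higher (Rpl39 at 0.35 and Rpl12 at 0.28), against 8.95% of all genes, and 0 were lower, against 10.7%. Rps27 at 0.24 came next, and the lowest were Rpl8 at -0.085, Rps25 at -0.061 and Rpl35 at -0.052. The brightest non-members had a median of 0.018. This comparison and that of 100 nM with ethanol share the 100 nM library, so their values are not independent of each other.

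Against ethanol, spironolactone had a family median of -0.00028 (0.026 with each array centred on the median gene), with 21 genes higher and 21 lower, against 48.2% higher and 51.8% lower over all genes. At least 1.2-fold, 1 gene was higher, Rpl39, against 8.52% of all genes, and 0 were lower, against 10% of all genes. Against 1 nM aldosterone, the median was 0.050 (0.0020 after quantile normalization), with 40 genes higher and 2 lower against 50.7% of all genes higher. The 188 brightest non-members had a median of 0.033, with 141 higher and 47 lower. At least 1.2-fold, 1 gene was higher, Rps27, against 7.89% of all genes, and 0 were lower, against 10.1%.

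Set out by treatment, 23 of the 42 genes had both libraries with aldosterone alone below both others, against 18.4% of all genes and 40.4% of the 188 brightest non-members, and 0 had both above both others, against 17.8% of all genes and 7.45% of the brightest non-members. This way of setting out the libraries was chosen after their values were seen. The gap between the pairs was mostly small: it reached 0.1 on the log2 scale in 3 genes, Rpl12 at 0.25, Rps27 at 0.24 and Rpl11 at 0.13. Rpl27a came next at 0.080, then Rps28 at 0.073 and Rplp0 at 0.064.

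The stalk recruits the elongation factors and consists of Rplp0, Rplp1 and Rplp2. Rplp0 had signals of 30152 with spironolactone, 29359 with ethanol, 28077 with 1 nM and 27767 with 100 nM aldosterone. Rplp2 had signals of 30204 with spironolactone, 30856 with ethanol, 28866 with 1 nM and 29865 with 100 nM aldosterone. Both were lower in both libraries with aldosterone alone, by less than 1.2-fold. Rplp1 was seen only in a probe set that also names a predicted locus, with signals of 25132 with spironolactone, 25884 with ethanol, 24267 with 1 nM and 25864 with 100 nM aldosterone, where the 1 nM library alone was low.

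Members with known roles outside the ribosome, or used as reference genes, were close to level. Rps7, which like Rpl11 binds Mdm2, had signals of 24927 with spironolactone, 23955 with ethanol, 23918 with 1 nM and 24177 with 100 nM aldosterone. Rpsa, also known as the laminin receptor, had signals of 27041 with spironolactone, 26928 with ethanol, 25512 with 1 nM and 26513 with 100 nM aldosterone. Rps19, the gene most often mutated in human Diamond-Blackfan anaemia, had signals of 18476 with spironolactone, 18466 with ethanol, 17760 with 1 nM and 18529 with 100 nM aldosterone. Rpsa and Rps19 were lowest with 1 nM aldosterone, and Rps7 had nearly equal signals with ethanol and 1 nM. Rpl38, which in mouse embryos is needed for translation of a set of Hox transcripts, had signals of 30256 with spironolactone, 31132 with ethanol, 28869 with 1 nM and 29676 with 100 nM aldosterone. Rpl13a and Rps18 are common reference genes for PCR. Rpl13a had signals of 31537 with spironolactone, 31317 with ethanol, 29813 with 1 nM and 30928 with 100 nM aldosterone. Rps18 had signals of 30568 with spironolactone, 31128 with ethanol, 30360 with 1 nM and 30681 with 100 nM aldosterone. Both were lowest with 1 nM aldosterone. By its brightest own probe set, none of Rps7, Rpsa, Rps19, Rpl38, Rpl13a and Rps18 reached 1.2-fold in any comparison. Dim Rps18 probe sets that passed the filter did. One had differences of -0.91 for 100 nM and -1.02 for 1 nM minus ethanol, and another -0.27 and -0.48. A dim Rps19 probe set, which also names a pseudogene or predicted locus, passed 1.2-fold too, for 100 nM but not for 1 nM minus ethanol.

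Probe sets that name a ribosomal protein gene together with a pseudogene or predicted locus also had their lowest signals mostly with 1 nM aldosterone. Taking the brightest for each of 36 genes, of which 11 also have an own probe set among the 42, the median difference was -0.042 for 100 nM minus ethanol, -0.083 for 1 nM minus ethanol and 0.028 for spironolactone minus 100 nM aldosterone. For 100 nM minus ethanol the 36 lay between -0.71 and 0.10. The 1 nM library was lowest for 30 of the 36, against 26.3% of all genes and 48.9% of the 188 brightest non-members. Rpl5, the Mdm2-binding partner of Rpl11, was seen only here, with signals of 26955 with spironolactone, 28073 with ethanol, 26389 with 1 nM and 27000 with 100 nM aldosterone. Both of its dimmer probe sets were higher with aldosterone than with ethanol, by 0.16 for 100 nM and 0.14 for 1 nM, opposite to the bright one. Rps16 was bright here, between 22989 and 24689, while its own probe set had signals of at most 15.9.

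The Rps6 transcript showed how far probe sets of 1 gene can part. Of its 9 probe sets that also name a pseudogene, 4 had a mean log2 signal above 14 and 5 a lower one, a division made after their values were seen. The brightest had signals of 29737 with spironolactone, 29159 with ethanol, 27440 with 1 nM and 27898 with 100 nM aldosterone, and the 4 bright sets had differences between -0.14 and -0.057 for 1 nM minus ethanol. The 5 dimmer sets were all highest with 1 nM aldosterone. One of them had signals of 4020 with spironolactone, 2411 with ethanol, 6486 with 1 nM and 3750 with 100 nM aldosterone, a 2.69-fold difference for 1 nM over ethanol. Another had signals of 1286 with spironolactone, 1099 with ethanol, 2316 with 1 nM and 1903 with 100 nM aldosterone, or 2.11-fold. What the dimmer sets hybridise to, the pseudogene's transcript, another form of the Rps6 transcript or other RNA, was not tested. They all name the same gene and pseudogene and are not independent measurements.

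**Figure D3:**
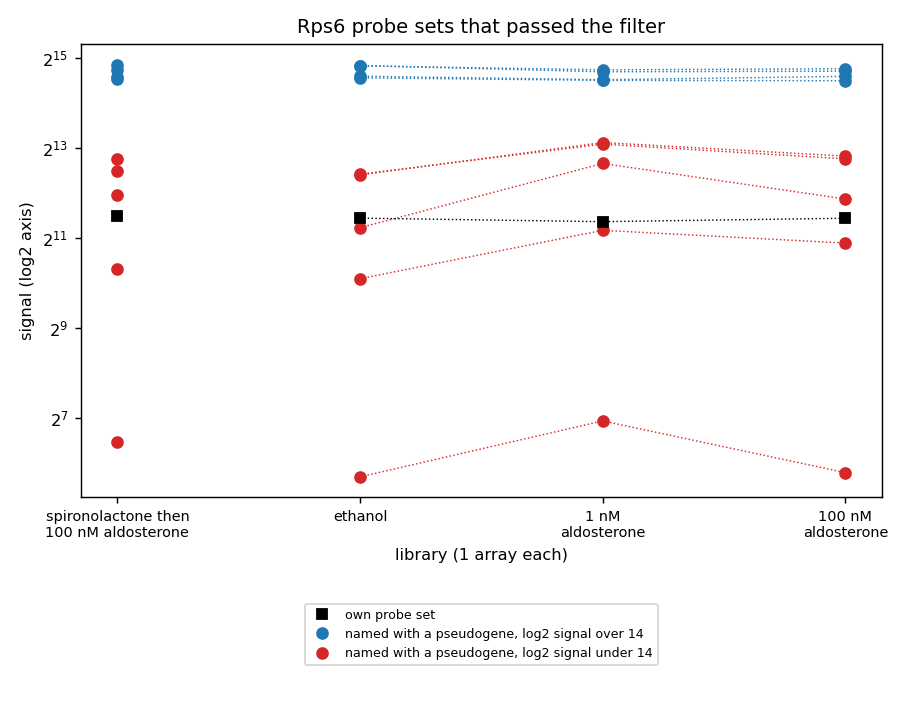
Signals of the Rps6 probe sets that passed the filter are plotted by library on a log2 axis, with black squares for the own probe set, blue for the 4 bright sets that also name a pseudogene and red for the 5 dimmer ones. The red points are highest with 1 nM aldosterone, while the blue and black points are close to level; dotted lines join the dose series only.

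Over the family as a whole, dim probe sets also differed more between libraries than bright ones. Of all own and pseudogene-naming probe sets that passed the filter, 142 had a mean log2 signal of at least 12, and 2 of these, both among the 5 dimmer Rps6 sets, passed 1.2-fold for 1 nM minus ethanol, against 2.54% of all other probe sets as bright. Of the 42 probe sets below that, 25 passed it, 9 higher and 16 lower, or 59.5%, against 29.1% of all other probe sets below that signal. Most of these calls were thus lower with 1 nM aldosterone, unlike those of Rps6. Rpl41, which encodes a very short peptide, is an example: its brightest probe set had signals of 24999 with spironolactone, 25336 with ethanol, 24409 with 1 nM and 25068 with 100 nM aldosterone, and one of its dim sets had signals of 894 with spironolactone, 1619 with ethanol, 732 with 1 nM and 842 with 100 nM aldosterone. The ethanol library alone was high in that dim set. Where a gene had a second own probe set that passed the filter, which was so for 19 genes, it shared the sign of the first in 15 for 100 nM minus ethanol, in 14 for 1 nM minus ethanol and in 10 for spironolactone minus 100 nM aldosterone.

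Ribosomal genes whose symbols fall outside the naming rule included one with a larger difference than any bright member. Rpl22l1, a paralog of Rpl22 whose transcript is known to be regulated by the Rpl22 protein, had signals of 10609 with spironolactone, 11063 with ethanol, 12230 with 1 nM and 13424 with 100 nM aldosterone. The values stood in the order of dose, with spironolactone lowest, and the differences were 0.28 for 100 nM minus ethanol and -0.34 for spironolactone minus 100 nM aldosterone, from 1 probe set. The brightest Rpl22 probe set had signals of 23028 with spironolactone, 23590 with ethanol, 22979 with 1 nM and 22274 with 100 nM aldosterone. It was lowest where Rpl22l1 was highest, but the other own Rpl22 probe sets were not. The next brightest had signals of 15822 with spironolactone, 16050 with ethanol, 15102 with 1 nM and 15958 with 100 nM aldosterone. A dim one was lowest with spironolactone, at 938. Fau, Rps3a1 and Rpl7l1, the other ribosomal genes outside the rule that passed the filter, stayed within 1.2-fold in these comparisons.

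Genes that build the ribosome were mostly higher with spironolactone than in each of the other 3 libraries. Of 49 ribosome assembly genes, 42 were higher with spironolactone than with 100 nM aldosterone, against 49.3% of all genes, with a median difference of log2 signal of 0.12 against -0.0028 over all genes (0.11 after quantile normalization), and 4 were at least 1.2-fold higher while 0 were lower by that much, against 8.95% and 10.7% of all genes. Rrs1, a 60S assembly factor, had signals of 6210 with spironolactone, 5011 with ethanol, 5123 with 1 nM and 4633 with 100 nM aldosterone, a difference of 0.42, and the spironolactone library was the highest of the 4. Wdr75, a component of the small subunit processome, was at 0.38, Rrp9, a U3 snoRNA-binding protein, at 0.37, and Ddx21, a nucleolar RNA helicase, at 0.28. Dimmer second probe sets gave smaller differences, of 0.19 for Rrs1 and 0.014 for Wdr75, and one of -0.093 for Ddx21. Rrp9 was highest with 1 nM aldosterone, at 613 against 583 with spironolactone. The list's median was 0.082 for spironolactone minus ethanol, with 38 of 49 genes higher, against 48.2% of all genes. For spironolactone minus 1 nM aldosterone it was 0.097, with 42 higher, against 50.7% of all genes. The comparisons with spironolactone share that library, so their values are not independent of each other. For 100 nM aldosterone minus ethanol, the list's median was -0.034, with 18 genes higher and 31 lower, against 48.7% and 51.3% of all genes.

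**Figure D4:**
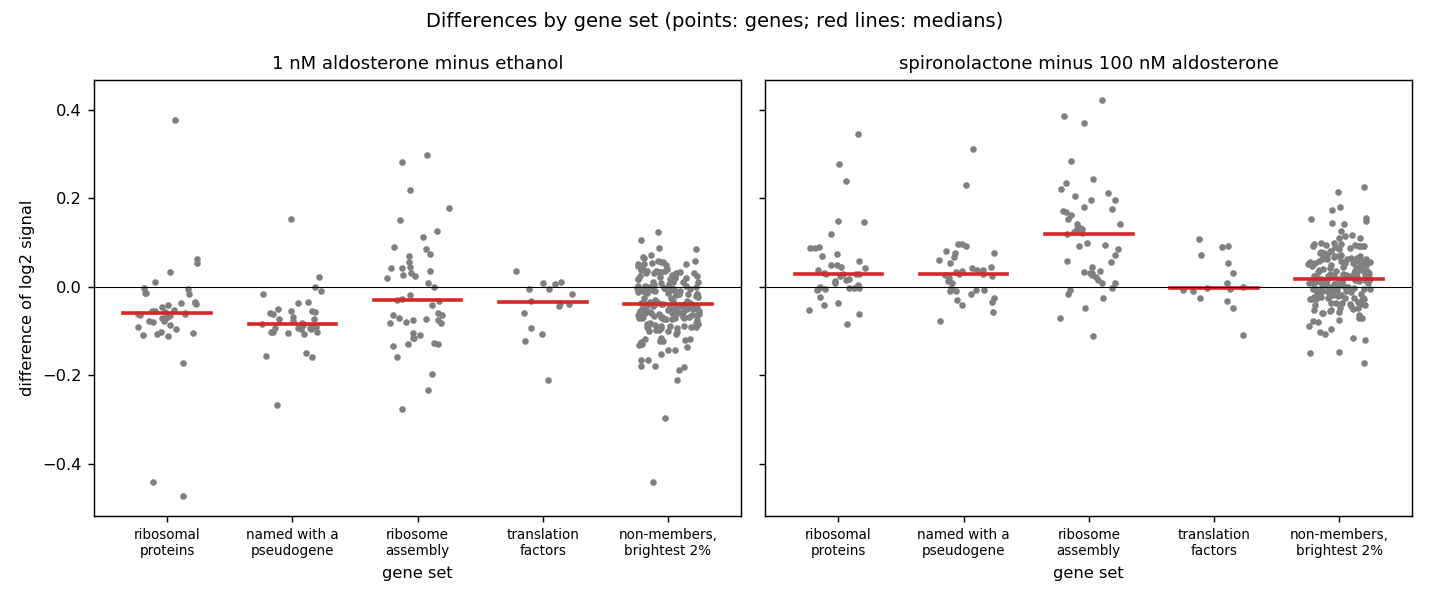
Points are genes (for the second set, the brightest probe set per gene) and red lines are medians of the difference of log2 signal, for 1 nM aldosterone minus ethanol (left) and spironolactone minus 100 nM aldosterone (right). On the left the family median is -0.060 (0.0078 after quantile normalization) and that of the brightest non-members -0.040; on the right the assembly genes have a median of 0.12 and the family one of 0.028 (0 after quantile normalization).

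The other lists of ribosome-related and reference genes lay closer to 0 for spironolactone minus 100 nM aldosterone. The 12 RNA polymerase I genes had a median of 0.023, and of -0.096 for 100 nM minus ethanol. There Taf1d, a subunit of its promoter selectivity factor, was at -0.43 and Taf1c at -0.41, while Taf1a was at 0.34 and Taf1b at 0.24. The 16 translation factor and related genes whose transcripts are known to carry the same start tract had a median of -0.0023 for spironolactone minus 100 nM aldosterone, and of -0.035 for 1 nM minus ethanol, where 4 were higher and 12 lower. The largest of these was Tpt1 at -0.21. The 18 regulators of ribosomal protein synthesis had a median of 0.015 and the 14 common reference genes one of -0.0076, both for spironolactone minus 100 nM aldosterone. Further from 0 were the 7 distal convoluted tubule markers that passed the filter, with a median of -0.24 there. Of these, 1 was higher and 6 were lower, against 49.3% and 50.7% of all genes. Several were dim, such as Pvalb, with signals between 38.3 and 91.5, and Trpm6, between 73.1 and 95.4. The dimmest 10% of all genes compared had a median of -0.073 there. The part of these markers in the ribosomal values was not tested.

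Motifs were searched in the window of 250 bases before and 50 bases after each annotated start. CCGGAAG, the core bound by ETS factors such as Gabpa, was found on either strand in 25 of the 58 genes, or 43.1%, against 9.93% of all genes in the table. AAGATGG, the core of the Yy1 motif, was found in 9, or 15.5%, against 7.28%. TGTTCT, one arm of the element that steroid receptors bind, was found in 10, or 17.2%, against 21.3%, and the full element, this arm and its reverse complement 3 bases apart, in 0 of the 58 and in 3 of all 27025. The tract at the start overlapped CCGGAAG in 0 promoters. The 8 of the 42 genes with a start tract had a median difference of -0.087 for 1 nM minus ethanol, and the 29 with a promoter entry but no tract one of -0.059. By the brightest own probe sets, the 8 with TGTTCT had a median of -0.083 for 100 nM minus ethanol, with 0 of 8 higher. The 29 without it had a median of -0.013, with 9 of 29 higher. Other own probe sets of the 8 went both ways there, such as 0.18 for Rpl27, and 0.36 and -0.75 for Rps9. A part of the motif in these values was not tested. For 1 nM minus ethanol the medians lay closer, at -0.079 with TGTTCT and -0.056 without it. The 19 genes with CCGGAAG had a median of -0.012 for 100 nM minus ethanol, and the 18 without it one of -0.030. These letters are short and occur in many promoters, and a match is not a bound site.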

How the data were processed

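The deposited table gives a linear intensity (signal) for every probe set. The submitters' processing notes name MAS5 for this step; the labels state neither its version nor the scaling target, and detection calls were not used here. The trimmed mean of the deposited intensities, without the highest and lowest 2%, was 500.003 in each library. The table held 45101 probe sets, 64 of them controls. By the platform annotation 34958 had 1 gene symbol and 932 several; 34754 were matched by Entrez identifier to RefSeq genes of GRCm38.p6, with 0 symbols changed. Sample columns of other series numbered 0.

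Each gene's brightest probe set by mean log2 signal was used, if at or above the median of non-control probe sets, a signal of 55.9. Differences are of log2 signal without a pseudocount, for 6 pairs of libraries, and calls were made at 1.2-fold. With 1 library per treatment no p-value was computed, and having 4 arrays limits the precision. The script was tested on simulated data. Python 3.11.15, pandas 2.3.3, numpy 2.4.6 and matplotlib 3.10.9 were used.

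The members, the gene lists and the rule for named genes were chosen with earlier results of these data known. The rule took the 3 highest and 3 lowest members of 3 comparisons, the 8 widest and 8 narrowest ranges, the stalk, the paralogs, members fixed by role, and the 4 largest differences of each other list. From these, those that bear on a result were described. The lists were small and large subunit, stalk, ribosomal genes outside the rule, ribosome assembly, RNA polymerase I, translation factors, regulators, reference genes and cell type markers. The brightest 2% of non-members, the split of probe sets by brightness, the count of hybridization controls and the pairing of both libraries with aldosterone alone were added after seeing the data. Protein sequences were not used here.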

Additional observations from a re-analysis of the deposited data

How the results depend on the processing

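The family's median differences were recomputed under 12 settings. Quantile normalization turned 4 of the 6: it gave 0.0064 for 100 nM minus ethanol, 0.0078 for 1 nM minus ethanol, 0.0028 for spironolactone minus ethanol and -0.00088 for 100 nM minus 1 nM aldosterone, and 0 for spironolactone minus 100 nM aldosterone. That method gives every array the same distribution of signals, so a shift shared by the brightest probe sets is removed by its construction. The median for spironolactone minus ethanol also turned sign with centring (0.026), with the next brightest probe set (0.00046) and without the paralogs (0.00015). Under the remaining settings the direction was kept and the move was smaller than the interquartile range over members. At 1.5-fold, 0 of the 42 members that passed the filter were called in any of the 6 comparisons by their brightest own probe sets. Taken as the median of its own probe sets, Rpl41 moved to -0.31 for 100 nM minus ethanol and -0.36 for 1 nM minus ethanol. No paired analysis was possible because each treatment has 1 library, and no replicate could be left out.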
